A study of Mus musculus with 9 samples.

Results

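Leonurine, an alkaloid of motherwort that the series title calls SCM-198, was compared with saline in livers of wild-type mice that had all been injected with acetaminophen (APAP). The comparison took in 5 of the 9 RNA sequencing libraries of the series, placed in their groups by their titles. Both APAP-WT-Leo libraries came from wild-type mice given APAP and then leonurine, and the 3 APAP-WT-Saline libraries from wild-type mice given APAP and then saline. Of the other 4 libraries, 2 were APAP-Adipor2KO-Leo and 2 were APAP-Adipor2KO-Saline, from mice labelled as lacking the adiponectin receptor gene Adipor2. Adipor2 transcript was nevertheless present in all 4 of them, with values given below, so they are called the labelled knockout. All groups had received APAP, so no library shows an uninjured liver. The labels give no dose, interval, sex or age, and do not say that replicate libraries are from different mice, so the p-values measure the spread between these libraries, which may be technical. The series asks whether leonurine acts through Adipor2 in drug-injured liver.

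An overdose of APAP is oxidised in hepatocytes by cytochrome P450 enzymes to a reactive quinone imine. Glutathione, joined to it by glutathione transferases, removes this product, and what remains binds proteins and kills cells around the central veins. Injured or inflamed liver also mounts an acute phase response, in which IL-6 and IL-1 signals acting through STAT3, C/EBP and NF-kB factors raise plasma proteins such as serum amyloid A, haptoglobin and fibrinogen while many metabolic genes of the hepatocyte are turned down.

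Expression was given as FPKM (fragments per kilobase of transcript, scaled to library total). Of 16857 genes in the deposited table, 10084 reached 1 FPKM in 2 or more of the 5 wild-type libraries and were tested on log2(FPKM + 1). On this scale the change of a gene near or under 1 FPKM is understated. The limma fit called a gene at an adjusted p under 0.05 (Benjamini-Hochberg), and a gene is said below to have risen or fallen only where it was called. Leonurine livers differed from saline livers at 715 genes, or 7.09% of those tested. Of these, 200 were higher in leonurine livers (1.98%) and 515 were lower (5.11%). All 715 had leonurine libraries that did not overlap the saline libraries. Among all genes tested, both leonurine libraries lay above all 3 saline libraries at 12.9% and below them at 34.7%. The median gene changed by -0.13 on the log2 scale. Scaling by median ratios, which brought the median gene to 0.00, gave 347 higher and 434 lower calls, and quantile normalization gave 399 and 440. The share of higher calls was therefore 27.97% with the deposited scaling, 44.4% with median ratios and 47.6% with quantiles.

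Total fragments recovered from the FPKM values lay between 35316653 and 38996734 per library over all 9 libraries. The 10 most abundant genes took 25.4% and 30.0% of the fragments of the leonurine libraries, against 22.3% to 23.1% of the saline libraries. Hepatocyte genes were abundant in every library: albumin (Alb) had 46277 and 26493 FPKM in leonurine livers, against 59356, 60071 and 53411 FPKM in saline livers, and Hnf4a, a transcription factor that maintains hepatocyte identity, had 157 and 129 FPKM against 200, 235 and 196 FPKM. The leonurine values were below all saline values for both genes, and neither passed (adjusted p = 0.173 and 0.0916). In these bulk samples, fewer cells of a type and less RNA per cell cannot be told apart. The 2 leonurine libraries differed in strength. Against the mean of the saline libraries, replicate 1 had 387 genes and replicate 2 had 879 genes that differed by at least 1 on the log2 scale. Where values of both are given, replicate 1 comes first. Without 1 leonurine library only 1 was left in that group, so spread between leonurine libraries did not enter the p-values. Counts and calls given below for such omissions are descriptions and do not measure that spread. Leaving out 1 saline library gave 361 (without replicate 1), 165 (without replicate 2) and 170 (without replicate 3) calls.

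Promoter sequence upstream of 3 acute phase genes that rose and of 1 clock gene that fell is shown as examples. All of them hold matches to the forms named below, and each stretch shown is only part of the 250 bases searched. They do not show how common matches were in their groups, for which counts follow. The sequences are from RefSeq (build GRCm38.p6), read 5′ to 3′ along the gene and end just before its start site. In the first 3, capitals mark matches to TTCNNNGAA, the form bound by STAT factors, or TTGCNNAA, the form bound by C/EBP factors, on either strand. In the last, capitals mark the E-box CACGTG, which is bound by the clock activators CLOCK and BMAL1. Steap4 lies on the plus strand at chr5:7960342-7960471, Saa3 on the minus strand at chr7:46715677-46715796, Fgb on the minus strand at chr3:83049864-83050043 and Ciart on the minus strand at chr3:95882229-95882358.
Steap4: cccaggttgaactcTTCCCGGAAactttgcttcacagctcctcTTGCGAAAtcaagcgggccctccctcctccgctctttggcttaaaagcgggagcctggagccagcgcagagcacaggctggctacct
Saa3: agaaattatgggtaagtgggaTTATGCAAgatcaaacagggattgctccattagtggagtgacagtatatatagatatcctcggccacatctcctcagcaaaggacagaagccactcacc
Fgb: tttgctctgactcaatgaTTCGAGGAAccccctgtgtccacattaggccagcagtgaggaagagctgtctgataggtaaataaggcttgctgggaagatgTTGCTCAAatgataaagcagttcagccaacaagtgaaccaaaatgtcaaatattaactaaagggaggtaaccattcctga
Ciart: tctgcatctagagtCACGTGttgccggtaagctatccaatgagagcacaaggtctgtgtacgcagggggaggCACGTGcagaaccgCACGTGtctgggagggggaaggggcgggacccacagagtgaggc

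The STAT form stood 116 bases before the start of Steap4 and 162 bases before that of Fgb, and the C/EBP form 87, 99 and 80 bases before the starts of Steap4, Saa3 and Fgb. The match in Saa3 overlapped a match to the D-box (TTATGNAA). In Ciart the E-box stood 116, 58 and 44 bases before the start. Of the 22 tested acute phase genes with a RefSeq promoter, the 250 bases before the start held the STAT form in 7 and the C/EBP form in 11, against 5.93% and 7.81% of the 8165 promoters of genes tested and 7.18% and 9.55% of all 27025 RefSeq promoters. The E-box stood in 5 of 17 promoters of tested clock genes (29.4%), against 8.78% of those of genes tested and 6.05% of all promoters. The other forms searched gave 2 acute phase promoters with an NF-kB site, 2 with a D-box, 3 with the antioxidant response element TGACNNNGC and 0 with an E-box. The C/EBP form also stood in 12.5% of promoters of genes that fell, against 13.5% for genes that rose. For the STAT form these shares were 4.1% and 10.3%. Of 19 glutathione transferase promoters, 4 held the C/EBP form (21.1%, against 7.81% of those of genes tested). Of the 17 clock promoters, 3 held the D-box (17.6%, against 2.13%). These matches are descriptions of the letters and no binding was measured.

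Acute phase proteins were the group with the most rises. Of 29 tested members, 22 rose and 0 fell, with a median change of 1.93 on the log2 scale against -0.13 over all genes tested. Both leonurine libraries lay above all saline libraries for 28 of the 29, against 12.9% of all genes tested. The summed FPKM of the members was 75432 and 175835 in leonurine livers, against 27146 to 33680 in saline livers. The count of rises was 24 without leonurine replicate 1, 12 without leonurine replicate 2, and 17, 11 and 12 without saline replicates 1, 2 and 3. It was 8 with no filter on low values and 6 with the replicate numbers as a block.

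Saa3, a serum amyloid A that is made by macrophages as well as hepatocytes, had 312 and 2112 FPKM in leonurine livers, against 10.2, 4.04 and 6.84 FPKM in saline livers. The change was 6.74 ± 1.07 on the log2 scale (SE of the limma fit, adjusted p = 0.00988). A2m, the protease inhibitor alpha-2-macroglobulin, had 9.58 and 933 FPKM, against 0.145, 0.237 and 0.206 FPKM. Its leonurine libraries differed from each other far more than the saline libraries did, and its change of 6.38 ± 1.37 (adjusted p = 0.0278) was 9.61 without leonurine replicate 1 and 3.15 without replicate 2. The secreted amyloids Saa1 and Saa2 had 3688 and 16172 FPKM and 4906 and 28663 FPKM in leonurine livers, against 855 to 918 FPKM and 1062 to 1107 FPKM in saline livers. Both were above every saline library, and neither passed (adjusted p = 0.0728 and 0.0953). Saa1 and Saa2 are near-identical copies, as are the Orm genes, so fragments may be split between them.

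Lcn2, lipocalin 2, which binds bacterial iron carriers, had 4251 and 7994 FPKM in leonurine livers, against 545, 262 and 204 FPKM in saline livers, a change of 4.24 ± 0.46 (adjusted p = 0.00223). The serine protease inhibitor gene Serpina3n had 2647 and 6341 FPKM, against 511, 336 and 370 FPKM (3.36 ± 0.35, adjusted p = 0.00197). Steap4, a metalloreductase of inflamed tissue, had 682 and 557 FPKM, against 107, 67.0 and 81.6 FPKM (2.86 ± 0.24, adjusted p = 0.000732). In Steap4 replicate 1 was the higher leonurine library, whereas in Lcn2 and Serpina3n it was replicate 2.

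Apcs, the serum amyloid P gene, which is a main acute phase pentraxin of the mouse, had 1024 and 2209 FPKM in leonurine livers, against 244, 208 and 204 FPKM in saline livers (2.78 ± 0.40, adjusted p = 0.00708). Crp, the related C-reactive protein, had 235 and 275 FPKM, against 138, 177 and 160 FPKM (0.69 ± 0.21, adjusted p = 0.0821). The fibrinogen chains Fga, Fgb and Fgg rose together, with 5578 and 11373, 8622 and 16575, and 4406 and 8668 FPKM in leonurine livers, against 1914 to 2433, 3332 to 3934, and 1730 to 1992 FPKM in saline livers. Haptoglobin (Hp) had 10877 and 20769 FPKM, against 4900, 3146 and 4291 FPKM (1.89 ± 0.32), and Lrg1, a leucine-rich glycoprotein, had 2103 and 2791 FPKM, against 772, 479 and 455 FPKM (2.13 ± 0.34). The hepcidin gene Hamp, whose product blocks iron export, had 1389 and 1476 FPKM in leonurine livers, against 697, 131 and 463 FPKM in saline livers, and did not pass (adjusted p = 0.140).

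Il1rn and Cd14, which dampen and sense inflammation, differed in which leonurine library was higher. Il1rn, the IL-1 receptor antagonist, had 54.4 and 10.4 FPKM in leonurine livers, against 2.45, 1.49 and 1.84 FPKM in saline livers, and its change of 3.12 ± 0.51 (adjusted p = 0.0106) was 1.98 without replicate 1. Cd14, a co-receptor for lipopolysaccharide, had 22.4 and 53.4 FPKM, against 3.27, 2.60 and 3.96 FPKM (3.08 ± 0.32, adjusted p = 0.00197). The calls of Steap4, Cd14, Serpina3n, Lcn2, Il1rn and Apcs held without any 1 of the 5 libraries. Those of Saa3, Fga, Fgb, Fgg and Lrg1 ended without leonurine replicate 2, that of A2m without any 1 saline library, those of the 3 fibrinogen chains without saline replicate 2 or 3, and that of Hp without saline replicate 2 (adjusted p 0.0544 to 0.0956).

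**Figure D1:**
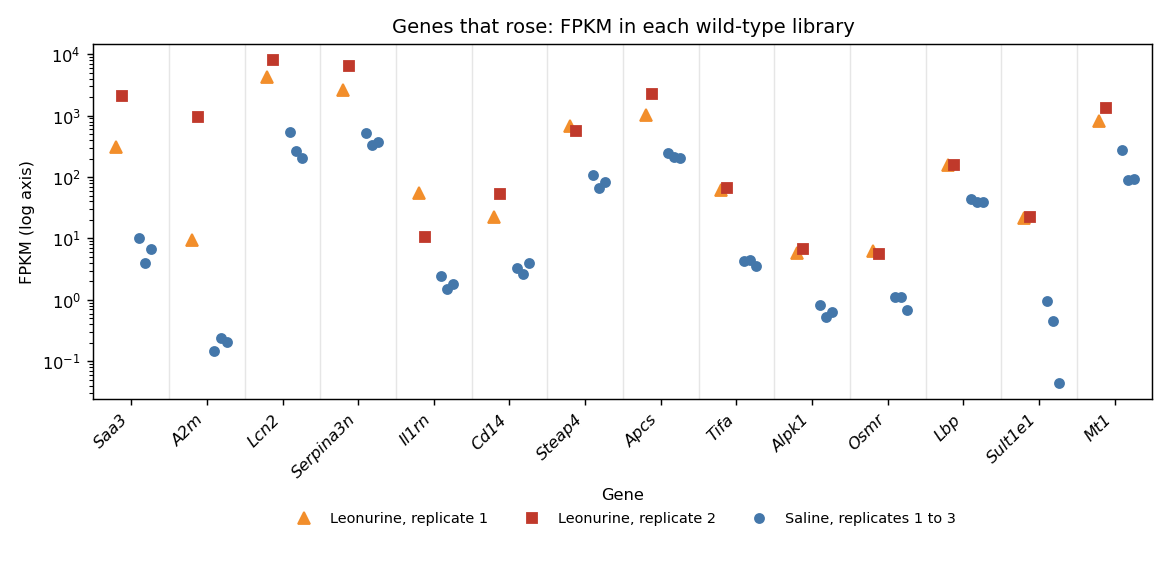
FPKM (log axis) of 14 genes that rose, in each wild-type library, with leonurine replicates 1 (triangles) and 2 (squares) left of the 3 saline libraries (circles). For Tifa the leonurine libraries sit at 61.4 and 67.0 FPKM and the saline libraries at 3.56 to 4.43 FPKM, whereas for A2m the leonurine libraries are far apart, at 9.58 and 933 FPKM.

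Lists of bacterial sensing and of the NF-kB pathway were set against all genes tested, of which 1.98% rose and 5.11% fell. Of 10 tested genes of LPS and Toll-like receptor sensing, 3 rose (Cd14, Lbp and Alpk1) and 0 fell, with a median of 0.37. Of 25 tested NF-kB pathway genes, 10 had both leonurine libraries above all saline libraries and 3 had both below. Over all genes tested the shares were 12.9% and 34.7%. In the fit 1 of the 25 rose (Tifa) and 1 fell (Ikbkg), which is near the shares called of 1.98% and 5.11%. The list median was 0.36. The NF-kB counts were 6 higher and 0 lower under median-ratio scaling, 5 and 0 under quantile normalization, and 5 and 0 without leonurine replicate 2.

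Tifa, an adaptor that links TRAF6 to NF-kB, had 61.4 and 67.0 FPKM in leonurine livers, against 4.28, 4.43 and 3.56 FPKM in saline livers, a change of 3.68 ± 0.16 (adjusted p = 1.63e-05). Alpk1, the kinase that detects bacterial ADP-heptose and phosphorylates TIFA, had 5.76 and 6.70 FPKM, against 0.827, 0.524 and 0.625 FPKM (2.13 ± 0.19, adjusted p = 0.00093). The genes neighbour each other on chromosome 3 in GENCODE (GRCm38), Alpk1 on the minus strand at 127670310 to 127780527 and Tifa on the plus strand at 127789805 to 127832164, with 9278 bases between their starts. Unlike most acute phase genes, both had almost equal values in the 2 leonurine libraries. Lbp, which carries lipopolysaccharide to CD14, had 159 FPKM in each leonurine liver, against 43.9, 39.5 and 39.9 FPKM in saline livers (1.93 ± 0.22, adjusted p = 0.0029). Ikbkg, the regulatory subunit of the IkB kinase, had 5.87 and 6.31 FPKM, against 8.95, 11.2 and 11.6 FPKM (-0.70 ± 0.16, adjusted p = 0.0372). Its exons overlap those of G6pdx on the opposite strand, and the use of strand in counting was not given. Tlr4, the lipopolysaccharide receptor, was below the filter, with 0.466 and 0.484 FPKM in leonurine livers, against 0.487 to 0.723 FPKM in saline livers. The NF-kB inhibitor Nfkbia, itself an NF-kB target, had 33.8 and 19.7 FPKM, against 31.3, 25.8 and 32.9 FPKM, and its groups overlapped.

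Among 18 tested genes of the IL-6 family receptors and STAT3 feedback, 5 rose and 1 fell, against 1.98% and 5.11% of all genes tested. The list median was 0.46. Osmr, the oncostatin M receptor, had 6.23 and 5.59 FPKM in leonurine livers, against 1.09, 1.09 and 0.689 FPKM in saline livers (1.82 ± 0.17, adjusted p = 0.00106). Socs3, the inhibitor that STAT3 induces, had 34.0 and 45.4 FPKM, against 7.79, 5.32 and 5.41 FPKM (2.51 ± 0.50, adjusted p = 0.0214). Stat3 itself had 68.6 and 67.8 FPKM, against 41.2, 31.9 and 38.8 FPKM (0.86 ± 0.22). Il1r1, the IL-1 receptor, had 38.5 and 33.7 FPKM, against 18.9, 14.4 and 13.9 FPKM (1.16 ± 0.22), and the NF-kB cofactor Bcl3 had 71.2 and 36.2 FPKM, against 14.3, 9.83 and 19.2 FPKM (1.79 ± 0.40). All 3 rose. Exons of Stat3 overlap those of Stat5a on the opposite strand. Lifr, the receptor of leukaemia inhibitory factor, fell, with 18.8 and 8.14 FPKM against 25.3, 35.1 and 33.9 FPKM, and its change of -1.26 ± 0.30 was -0.70 without leonurine replicate 2. The IL-6 receptor chain Il6ra had 19.4 and 15.4 FPKM, against 28.6, 24.6 and 26.9 FPKM, and did not pass (adjusted p = 0.104).

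Of 17 tested cytokine and chemokine genes, 2 rose and 0 fell, against 1.98% and 5.11% of all genes tested. The list median was 0.04. Il33, an alarmin, had 2.38 and 2.44 FPKM in leonurine livers, against 1.04, 0.909 and 0.736 FPKM in saline livers (0.85 ± 0.13), and Ccl6, a chemokine of myeloid cells, had 32.8 and 40.9 FPKM, against 15.3, 12.6 and 15.7 FPKM (1.28 ± 0.22). The neutrophil chemokine Cxcl1 had 158 and 121 FPKM in leonurine livers, against 54.7, 10.05 and 17.7 FPKM in saline livers, and did not pass (adjusted p = 0.0655). Il6 had at most 0.0226 FPKM in leonurine livers and at most 0.122 FPKM in saline livers, and Tnf at most 0.0781 and 0.0973 FPKM. In this set the calls of Tifa, Alpk1, Lbp and Osmr held without any 1 of the 5 libraries. Without leonurine replicate 2 those of Ikbkg, Il1r1, Socs3, Bcl3, Stat3, Lifr, Il33 and Ccl6 ended. Without saline replicate 2 the same calls ended other than that of Il33, and without saline replicate 3 other than those of Il33 and Ccl6. Those of Bcl3 and Stat3 also ended without saline replicate 1 or leonurine replicate 1, that of Lifr without saline replicate 1, and that of Ikbkg without leonurine replicate 1 (adjusted p 0.0528 to 0.215 over these omissions).

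Sult1e1, the sulfotransferase that inactivates oestrogens, had 21.2 and 22.4 FPKM in leonurine livers, against 0.943, 0.447 and 0.044 FPKM in saline livers (3.99 ± 0.29, adjusted p = 0.000321). Wnt10a, a Wnt ligand, had 3.88 and 6.70 FPKM, against 0.0144, 0.0137 and 0 FPKM (2.60 ± 0.18, adjusted p = 0.000321). Cyp17a1, a steroid hydroxylase, had 25.2 and 129 FPKM, against 3.86, 6.17 and 4.76 FPKM, and its change of 3.32 ± 0.67 (adjusted p = 0.023) was 2.16 without leonurine replicate 2. For all 3 genes every leonurine library lay above every saline library, as at every gene that rose.

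Metal-binding and metal-transport genes rose in part. Of 8 tested metallothionein and zinc transporter genes 3 rose and 0 fell, with a median of 0.08. The metallothionein genes Mt1 and Mt2, which bind zinc, had 818 and 1339 FPKM and 1398 and 1858 FPKM in leonurine livers, against 272, 90.3 and 92.3 FPKM and 565, 93.0 and 141 FPKM in saline livers. Saline replicate 1 was the highest of the saline libraries for both. Slc39a14, the zinc importer that is induced in the acute phase, had 90.0 and 92.6 FPKM, against 44.9, 37.0 and 37.8 FPKM (1.18 ± 0.21, adjusted p = 0.0132). Of 18 tested iron genes 3 rose and 3 fell, where 1.98% and 5.11% of all genes tested did. The metallothionein and zinc list had 0 calls without leonurine replicate 2 or saline replicate 2 or 3, and the iron list 0 to 2 rises and 0 falls without any 1 of the libraries other than leonurine replicate 1. The iron importer Slc11a2 had 17.3 and 10.2 FPKM in leonurine livers, against 4.98, 5.32 and 5.86 FPKM in saline livers (1.17 ± 0.20), and Tmprss6, a protease that restrains hepcidin, had 92.1 and 67.0 FPKM, against 128, 145 and 134 FPKM (-0.78 ± 0.18).

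Of 32 tested genes of protein translocation and secretion, 1 was called higher and 0 lower, against 1.98% and 5.11% of all genes tested. It was Spcs2, a signal peptidase subunit, with 21.4 and 28.8 FPKM in leonurine livers, against 15.9, 12.8 and 15.1 FPKM in saline livers (0.73 ± 0.17). The median was 0.36, and 23 of the 32 had both leonurine libraries above all saline libraries, against 12.9% of all genes tested. The count of rises was 7 with median-ratio scaling and 14 with quantile normalization. Of 32 tested genes of endoplasmic reticulum stress 1 rose and 2 fell, with a median of 0.24. Xbp1, a transcription factor of secretory capacity, had 141 and 115 FPKM in leonurine livers, against 76.2, 60.4 and 59.8 FPKM in saline livers (0.96 ± 0.17, adjusted p = 0.0148). Herpud1, a component of endoplasmic reticulum associated degradation, had 136 and 113 FPKM, against 342, 391 and 316 FPKM (-1.48 ± 0.24, adjusted p = 0.0102).

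Plasma proteins outside the acute phase list moved both ways. Serpina10, a factor X inhibitor, had 355 and 532 FPKM in leonurine livers, against 152, 120 and 125 FPKM in saline livers (1.71 ± 0.21). Klkb1 (plasma kallikrein), Mbl2 (mannose-binding lectin), Serpina6 (the corticosteroid carrier) and Ttr (transthyretin) fell. Serpina6 had 48.5 and 7.61 FPKM, against 165, 240 and 187 FPKM. Klkb1, Mbl2 and Ttr had 23.1 and 6.88, 204 and 66.6, and 2173 and 1143 FPKM, against 46.9 to 55.4, 375 to 478, and 3291 to 3823 FPKM. Over lists, 2 of 17 carriers known to decline in the acute phase fell and 0 rose, and 1 of 25 complement genes fell and 0 rose. Of 25 coagulation and fibrinolysis genes 2 rose and 2 fell. Among all genes tested 1.98% rose and 5.11% fell. The complement gene C3 had 5384 and 6807 FPKM, against 3560, 3614 and 3412 FPKM, and did not pass (adjusted p = 0.0978). The log2 changes without leonurine replicate 2 were -1.13 for Klkb1 (-1.94 with it), -1.01 for Mbl2 (-1.81), -1.99 for Serpina6 (-3.25) and -0.73 for Ttr (-1.197). Among these rises and falls, from Sult1e1 on, the calls of Sult1e1, Wnt10a and Serpina10 held without any 1 library. Those of Cyp17a1, Mt1, Mt2, Slc39a14, Tmprss6, Spcs2, Herpud1, Mbl2 and Ttr ended without leonurine replicate 2, and 5, 12 and 11 calls ended without saline replicates 1, 2 and 3. That of Mt2 also ended without leonurine replicate 1 (adjusted p 0.0503 to 0.260).

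Of 16 tested genes that dispose of APAP by oxidation, sulfation or glucuronidation, 10 fell in leonurine livers and 0 rose, with a median of -1.12. Both leonurine libraries lay below all saline libraries at 11 of the 16 and above them at 2, against 34.7% and 12.9% of all genes tested. Cyp2e1, the main P450 that oxidises APAP, had 1422 and 973 FPKM in leonurine livers, against 2154, 2999 and 2246 FPKM in saline livers (-1.05 ± 0.27, adjusted p = 0.0481). Cyp1a2, another APAP oxidase, had 136 and 33.9 FPKM, against 308, 412 and 400 FPKM (-2.43 ± 0.55, adjusted p = 0.0334). Cyp3a11 had 483 and 68.3 FPKM, against 1061, 1120 and 853 FPKM, and did not pass (adjusted p = 0.0722).

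Cyp2a5, a coumarin hydroxylase, had 33.2 and 1.27 FPKM in leonurine livers, against 314, 562 and 571 FPKM in saline livers (-5.72 ± 0.90, adjusted p = 0.00988). Ugt2b1, a glucuronosyltransferase, had 39.9 and 12.1 FPKM, against 130, 179 and 186 FPKM (-2.83 ± 0.40, adjusted p = 0.00689). Ugt1a6a, whose human counterpart glucuronidates APAP, had 7.88 and 5.95 FPKM, against 14.9, 16.2 and 20.2 FPKM. The Ugt1a genes share their last exons, so their separate values are uncertain. Papss2, which makes the sulfate donor, had 28.7 and 9.02 FPKM, against 59.5, 67.7 and 52.4 FPKM. In each of these genes leonurine replicate 2 was the lower leonurine library.

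Targets of the xenobiotic receptors CAR and PXR fell in 10 of 20 tested cases and rose in 0. The shares over all genes tested were 5.11% and 1.98%. The list median was -1.09. Ces2a, a carboxylesterase, had 17.2 and 5.75 FPKM in leonurine livers, against 70.1, 81.8 and 75.4 FPKM in saline livers (-2.79 ± 0.35, adjusted p = 0.004), and Cyp3a25 had 53.6 and 19.9 FPKM, against 119.5, 210 and 190 FPKM (-2.33 ± 0.38). Other drug-handling genes had larger falls. Inmt, an indolethylamine methyltransferase, had 12.2 and 0.426 FPKM, against 367, 307 and 292 FPKM (-6.21 ± 0.74, adjusted p = 0.0035). The bile acid sulfotransferase gene Sult2a8 had 15.7 and 2.19 FPKM, against 64.3, 127 and 114 FPKM. The carboxylesterases Ces1d and Ces1f, members of a family of close copies, had 68.0 and 6.24 FPKM and 36.4 and 5.39 FPKM, against 221 to 301 FPKM and 144 to 197 FPKM. One methyltransferase moved the other way: Nnmt, which methylates nicotinamide, had 98.8 and 141 FPKM in leonurine livers, against 51.3, 28.04 and 33.6 FPKM in saline livers (1.67 ± 0.29, adjusted p = 0.0121).

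The falls in APAP-disposal genes numbered 12 without leonurine replicate 1, 3 without leonurine replicate 2, and 4, 3 and 3 without saline replicates 1, 2 and 3. Those in CAR and PXR targets numbered 15, 2, 3, 2 and 2 in the same order. The calls of Ugt2b1, Ugt1a6a, Cyp2a5, Ces2a, Cyp3a25, Sult2a8, Ces1f and Inmt held without any 1 library. Those of Papss2, Cyp2e1, Cyp1a2 and Nnmt ended without leonurine replicate 2, and those of Papss2, Cyp2e1, Cyp1a2 and Ces1d without any 1 saline library. That of Nnmt also ended without saline replicate 2 or 3 (adjusted p 0.0507 to 0.260). Leaving out leonurine replicate 2 gave a log2 change of -3.77 for Cyp2a5 (-5.72 with it), -1.94 for Ces1d (-3.57), -2.22 for Ces1f (-3.49), -1.03 for Papss2 (-1.81) and -1.44 for Cyp1a2 (-2.43).

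**Figure D2:**
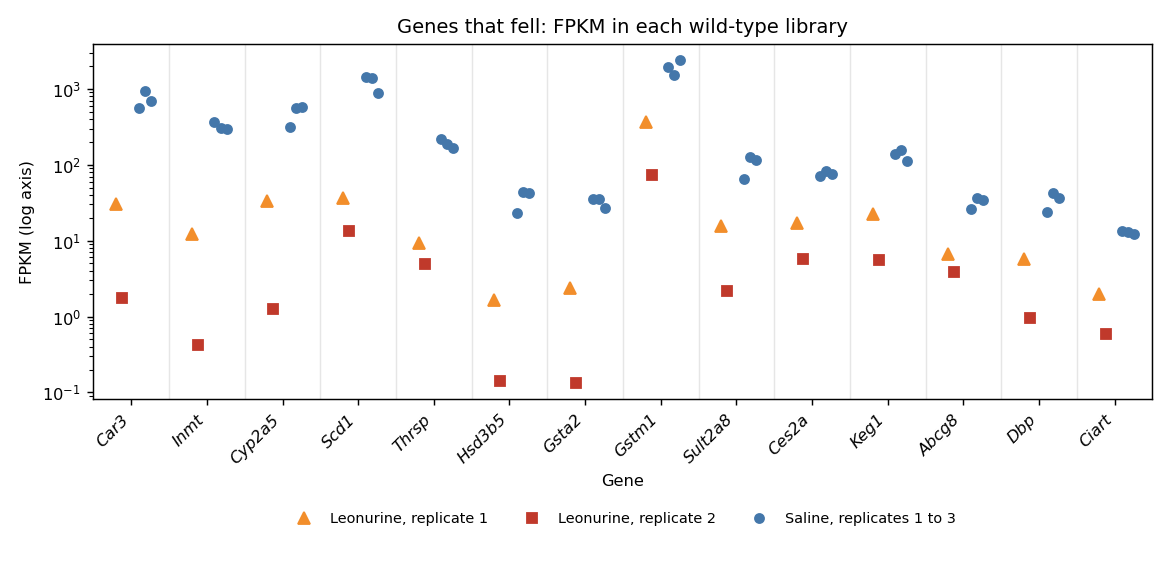
FPKM (log axis) of 14 genes that fell, in each wild-type library, with leonurine replicates 1 (triangles) and 2 (squares) left of the 3 saline libraries (circles). All leonurine values lie below all saline values, as at every gene that fell. Replicate 2 lies below replicate 1, as in Inmt with 12.2 and 0.426 FPKM, against 292 to 367 FPKM in saline livers.

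Glutathione transferases, which join glutathione to the APAP quinone imine, fell as a family in part. Of 21 tested members 12 fell and 0 rose, with a median of -1.37. Both leonurine libraries lay below all saline libraries at 18, against 34.7% of all genes tested. The summed FPKM of the family was 3260 and 2152 in leonurine livers, against 6883 to 7953 in saline livers. The count of falls depended on single libraries: it was 18 without leonurine replicate 1, 0 without leonurine replicate 2, and 5, 3 and 1 without saline replicates 1, 2 and 3. The family holds close copies, and reads may be split among them.

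Gstm1, the most abundant of the mu class here, had 365 and 74.2 FPKM in leonurine livers, against 1922, 1506 and 2394 FPKM in saline livers (-3.52 ± 0.63, adjusted p = 0.0143). Gsta2, of the alpha class, had 2.35 and 0.132 FPKM, against 35.0, 35.4 and 26.8 FPKM (-4.09 ± 0.63, adjusted p = 0.00927). Gstm3 had 32.8 and 3.32 FPKM, against 163, 124 and 159 FPKM, and its change of -3.62 ± 0.82 was -2.13 without leonurine replicate 2. Gstp1, of the pi class, had 819 and 497 FPKM, against 1684, 1673 and 2192 FPKM (-1.52 ± 0.34, adjusted p = 0.0334). Gstm4 had 8.83 and 4.63 FPKM, against 25.1, 23.4 and 29.7 FPKM (-1.86 ± 0.31), and Gstm6 had 17.4 and 7.82 FPKM, against 41.8, 51.2 and 43.0 FPKM (-1.86 ± 0.37).

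Among 25 tested genes of glutathione synthesis and Nrf2 targets, 6 fell and 0 rose, against 5.11% and 1.98% of all genes tested. The list median was -0.47. The falls numbered 12 without leonurine replicate 1, 2 without leonurine replicate 2, and 5, 2 and 2 without saline replicates 1, 2 and 3. The catalytic and modifier subunits of glutamate-cysteine ligase, which carries out the first step of glutathione synthesis, fell. Gclc had 44.6 and 26.2 FPKM in leonurine livers, against 124, 154 and 191 FPKM in saline livers (-2.13 ± 0.29, adjusted p = 0.00617). Gclm had 48.9 and 32.2 FPKM, against 70.3, 81.0 and 92.4 FPKM (-1.01 ± 0.21, adjusted p = 0.0239). Me1 and Tkt, which feed the NADPH pool, had 13.8 and 10.6 FPKM and 26.1 and 17.1 FPKM, against 37.9 to 69.6 FPKM and 48.6 to 57.8 FPKM (-2.08 ± 0.34 and -1.29 ± 0.25). Ephx1, an epoxide hydrolase, had 149 and 47.0 FPKM, against 308, 339 and 439 FPKM (-2.08 ± 0.40). All 3 fell. For Ephx1 the log2 change was -1.25 without leonurine replicate 2. The Nrf2 target Nqo1 had 3.55 and 1.12 FPKM, against 5.76, 5.53 and 6.52 FPKM, and did not pass (adjusted p = 0.0575). Hmox1, haem oxygenase 1, had 105 and 29.9 FPKM, against 35.5, 39.6 and 37.7 FPKM: replicate 1 was above and replicate 2 below all saline libraries.

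Of 21 tested genes of superoxide and peroxide detoxification, 1 rose and 2 fell, against 1.98% and 5.11% of all genes tested. Catalase (Cat) had 398 and 220 FPKM in leonurine livers, against 844, 1062 and 1010 FPKM in saline livers (-1.70 ± 0.26, adjusted p = 0.00847). Selenbp2, a liver protein that binds APAP, had 66.7 and 27.1 FPKM, against 380, 299 and 300 FPKM (-2.90 ± 0.37, adjusted p = 0.00412). Gpx3, the secreted glutathione peroxidase, rose, with 16.6 and 28.3 FPKM against 5.68, 5.09 and 5.31 FPKM (1.84 ± 0.25, adjusted p = 0.00644). In the glutathione and peroxide genes, the calls of Gclc, Selenbp2, Gpx3 and Cat held without any 1 library. Those of Gsta2, Gstm4, Gstm1, Gstm6, Gstm3, Gstp1, Me1, Tkt and Gclm ended without leonurine replicate 2, and those of Gstm3 and Gstp1 without any 1 saline library. Those of Gstm6, Tkt, Ephx1 and Gclm ended without saline replicate 2 or 3, and those of Gstm4 and Gstm1 without saline replicate 3 (adjusted p 0.0529 to 0.223).

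Fatty acid synthesis genes fell in 12 of 27 tested cases and rose in 0, against 5.11% and 1.98% of all genes tested. The list median was -1.196. Thrsp, a lipogenic regulator that responds to thyroid hormone and carbohydrate, had 9.34 and 4.997 FPKM in leonurine livers, against 221, 189 and 167 FPKM in saline livers (-4.61 ± 0.40, adjusted p = 0.000732). Scd1, the desaturase that makes oleate, had 37.0 and 13.3 FPKM, against 1431, 1376 and 874 FPKM (-5.68 ± 0.94, adjusted p = 0.0108). Srebf1, the transcription factor of the pathway, had 15.2 and 7.68 FPKM, against 31.8, 41.9 and 31.8 FPKM (-1.60 ± 0.29, adjusted p = 0.0168). Acaca, which commits acetyl-CoA to the pathway, had 10.005 and 7.43 FPKM, against 17.1, 19.7 and 18.8 FPKM (-1.02 ± 0.25). Lpin1, a phosphatidate phosphatase, had 34.5 and 17.6 FPKM, against 120, 87.5 and 88.8 FPKM (-1.94 ± 0.29), and Mid1ip1, a partner of acetyl-CoA carboxylase, had 5.53 and 3.47 FPKM, against 14.8, 22.2 and 18.8 FPKM (-1.84 ± 0.28). Fasn, the fatty acid synthase, had 19.6 and 19.2 FPKM, against 43.8, 64.9 and 61.7 FPKM, and did not pass (adjusted p = 0.135). The count of falls was 14 without leonurine replicate 1, 2 without leonurine replicate 2, and 10, 6 and 5 without saline replicates 1, 2 and 3.

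Of 27 tested bile acid genes 7 fell and 0 rose, against 5.11% and 1.98% of all genes tested. The list median was -0.71. The falls numbered 14 without leonurine replicate 1, 2 without leonurine replicate 2, and 3, 2 and 2 without saline replicates 1, 2 and 3. Abcg5 and Abcg8, the half-transporters that together secrete cholesterol into bile, lie back to back on chromosome 17 and fell together. Abcg8 had 6.60 and 3.83 FPKM in leonurine livers, against 26.3, 36.0 and 34.8 FPKM in saline livers (-2.45 ± 0.22, adjusted p = 0.00093), and Abcg5 had 12.4 and 6.36 FPKM, against 45.6, 48.0 and 45.3 FPKM (-2.25 ± 0.24). Their exons overlap on opposite strands, so reads without strand could be shared. Cyp7a1, the rate-limiting enzyme of bile acid synthesis, had 5.31 and 0.473 FPKM, against 11.3, 18.2 and 7.82 FPKM (adjusted p = 0.0778), and Cyp8b1 had 11.1 and 6.62 FPKM, against 13.1, 15.6 and 15.8 FPKM (adjusted p = 0.455).

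Of 24 tested cholesterol synthesis genes 3 fell and 0 rose, against 5.11% and 1.98% of all genes tested. Insig1, which retains the SREBP activators, had 24.3 and 37.1 FPKM in leonurine livers, against 65.0, 118 and 77.3 FPKM in saline livers (-1.46 ± 0.35). Sc5d, a sterol desaturase, had 37.9 and 34.3 FPKM, against 75.9, 86.0 and 91.0 FPKM (-1.198 ± 0.24), and Stard4, a sterol carrier, had 13.2 and 10.996 FPKM, against 19.7, 29.7 and 23.2 FPKM (-0.93 ± 0.18). The list median was -0.52 in leonurine replicate 1 and 0.33 in replicate 2. It was -0.07 in the fit, 0.08 with median-ratio scaling and 0.16 with quantile normalization.

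Among all genes tested 5.11% fell and 1.98% rose. Of 32 tested PPARalpha targets 6 fell and 0 rose, with a median of -0.68. Of 22 mitochondrial beta-oxidation genes 2 fell and 0 rose. These falls numbered 18 and 15 without leonurine replicate 1, 1 and 0 without leonurine replicate 2, and 1 to 2 and 0 without any 1 saline library. PPARalpha is the fatty acid sensor that induces peroxisomal and mitochondrial oxidation. Acaa1b, a peroxisomal thiolase, had 46.5 and 7.60 FPKM in leonurine livers, against 214, 309 and 275 FPKM in saline livers (-3.71 ± 0.56, adjusted p = 0.00865). Its exons overlap those of Dlec1 on the opposite strand. Fabp1, the liver fatty acid binding protein, had 3445 and 1301 FPKM, against 6583, 8613 and 9290 FPKM. Ehhadh had 99.3 and 19.5 FPKM, against 163, 209 and 243 FPKM, and its change of -2.16 ± 0.52 was -3.31 without leonurine replicate 1 and -1.02 without replicate 2. Leaving out replicate 2 gave changes of -1.23 for Fabp1 (-1.93 with it) and -1.07 for Acsl1 (-1.86). The median of the PPARalpha targets was -0.17 in leonurine replicate 1 and -1.03 in replicate 2.

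Among the lipid genes the calls of Thrsp, Lpin1, Abcg8, Abcg5 and Acaa1b held without any 1 library. Those of Mid1ip1, Scd1, Srebf1, Acaca, Fabp1, Ehhadh, Acsl1, Insig1, Sc5d and Stard4 ended without leonurine replicate 2, and 5, 8 and 8 calls ended without saline replicates 1, 2 and 3. Insig1 also lost its call without leonurine replicate 1 (adjusted p 0.0536 to 0.292).

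Genes of glycogen and glucose handling fell in 7 of 31 tested cases and rose in 1, against 5.11% and 1.98% of all genes tested. The list median was -0.33. The falls numbered 11 without leonurine replicate 1, 2 without leonurine replicate 2, and 3, 1 and 1 without saline replicates 1, 2 and 3. Pygl, liver glycogen phosphorylase, had 78.3 and 48.9 FPKM in leonurine livers, against 167, 174 and 184 FPKM in saline livers (-1.48 ± 0.22, adjusted p = 0.00732). G6pc, glucose-6-phosphatase, had 44.4 and 84.6 FPKM, against 322, 190 and 251 FPKM (-2.00 ± 0.48, adjusted p = 0.0402). Gys2, liver glycogen synthase, had 48.9 and 16.4 FPKM, against 83.5, 106 and 94.5 FPKM, and its change of -1.69 ± 0.36 was -0.93 without leonurine replicate 2. Ldha, lactate dehydrogenase, was the 1 gene that rose, with 397 and 316 FPKM against 198, 144 and 185 FPKM (1.02 ± 0.23, adjusted p = 0.0334). Pck1, which controls gluconeogenesis, had 1039 and 1036 FPKM, against 1437, 1082 and 1513 FPKM, and did not pass (adjusted p = 0.383).

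Of 40 tested genes of the urea cycle and amino acid breakdown 8 fell and 1 rose, against 5.11% and 1.98% of all genes tested. The list median was -0.50. The falls numbered 20 without leonurine replicate 1, 1 without leonurine replicate 2, and 3, 1 and 1 without saline replicates 1, 2 and 3. Otc, of the urea cycle, had 32.0 and 16.0 FPKM in leonurine livers, against 57.5, 70.3 and 57.5 FPKM in saline livers (-1.40 ± 0.25, adjusted p = 0.0151). The tryptophan enzymes Tdo2 and Haao had 383 and 329 FPKM and 40.7 and 34.2 FPKM, against 883 to 932 FPKM and 68.2 to 77.6 FPKM (-1.35 ± 0.29 and -0.96 ± 0.19). Amdhd1, of histidine breakdown, had 23.1 and 22.2 FPKM, against 37.2, 46.9 and 40.5 FPKM (-0.84 ± 0.17). Cps1, the first enzyme of the urea cycle, had 958 and 432 FPKM, against 1003, 890 and 680 FPKM, and its groups overlapped. Genes with larger falls were Car3, a cytosolic carbonic anhydrase, with 30.4 and 1.75 FPKM against 555, 942 and 686 FPKM (-6.26 ± 0.80, adjusted p = 0.00441), and Upp2, a uridine phosphorylase, with 8.52 and 0.556 FPKM against 39.6, 43.7 and 39.7 FPKM (-3.45 ± 0.57, adjusted p = 0.0109). Keg1 had 22.8 and 5.58 FPKM, against 138, 156 and 111 FPKM (-3.43 ± 0.43, adjusted p = 0.004). The change of Upp2 was -2.14 and that of Otc -0.92 without leonurine replicate 2. The calls of Pygl, Car3, Upp2 and Keg1 held without any 1 library. Those of Gys2, Ldha, G6pc, Haao, Amdhd1 and Tdo2 ended without leonurine replicate 2, 5, 7 and 7 calls ended without saline replicates 1, 2 and 3, and those of Ldha and G6pc ended without leonurine replicate 1 (adjusted p 0.0546 to 0.153).

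Of 20 tested circadian clock genes, 11 fell and 1 rose, against 5.11% and 1.98% of all genes tested. The list median was -1.17. In liver the clock activators CLOCK and BMAL1 drive Per, Cry, Rev-erb and PAR bZIP genes through E-boxes, and many metabolic genes follow the PAR bZIP factors. Ciart, a clock repressor whose promoter is shown above, had 1.98 and 0.583 FPKM in leonurine livers, against 13.4, 13.1 and 12.4 FPKM in saline livers (-2.69 ± 0.29, adjusted p = 0.00208). The PAR bZIP factors Dbp and Hlf had 5.73 and 0.960 FPKM and 4.41 and 2.98 FPKM, against 23.9, 43.0 and 36.6 FPKM and 8.28, 8.22 and 9.22 FPKM. Noct, a rhythmic phosphatase, had 10.7 and 5.73 FPKM, against 30.7, 30.2 and 26.8 FPKM (-1.77 ± 0.27, adjusted p = 0.00891). The repressor gene Per2 had 4.49 and 1.81 FPKM, against 10.2, 11.4 and 8.24 FPKM (-1.47 ± 0.38), and Nr1d1 (Rev-erb alpha) had 13.005 and 15.5 FPKM, against 22.0, 45.8 and 44.8 FPKM (-1.27 ± 0.33). Nfil3, a repressor of PAR bZIP targets, was the 1 clock gene that rose, with 12.1 and 13.5 FPKM against 5.57, 3.42 and 4.01 FPKM (1.39 ± 0.33, adjusted p = 0.0375). Arntl, which encodes BMAL1, was below the filter, with 0.252 and 0.780 FPKM, against 0.0748, 0.0807 and 0.0964 FPKM. Exons of Dbp and Nr1d1 overlap Sphk2 and Thra on opposite strands. The labels do not give the hour of tissue collection, and its part in these values was not tested.

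Growth hormone signalling showed 1 call in 15 tested genes, where 7.09% of all genes tested were called. Ghr, the growth hormone receptor, had 40.5 and 25.9 FPKM in leonurine livers, against 88.8, 106 and 96.8 FPKM in saline livers (-1.55 ± 0.20, adjusted p = 0.00447). Igf1, its main hepatic target, had 52.6 and 45.4 FPKM, against 63.4, 66.8 and 57.9 FPKM (adjusted p = 0.2996). Of 22 tested liver genes that are higher in male mice, 8 fell and 0 rose, with a median of -1.39, and the falls numbered 11 without leonurine replicate 1, 3 without leonurine replicate 2, and 10, 3 and 3 without saline replicates 1, 2 and 3. Among them, Hsd3b5 had 1.64 and 0.143 FPKM, against 22.8, 44.0 and 42.1 FPKM (-4.37 ± 0.46, adjusted p = 0.00197). Of 10 tested female-biased genes 1 rose and 1 fell, against 1.98% and 5.11% of all genes tested. The Y-linked gene Ddx3y was present in all 5 libraries, at 10.6 and 10.2 FPKM in leonurine livers, against 11.9, 14.3 and 13.5 FPKM in saline livers. The calls of Ciart, Dbp, Hlf, Ghr and Hsd3b5 held without any 1 library. The count of clock genes that fell was 11 without leonurine replicate 1, 4 without leonurine replicate 2, and 9, 6 and 5 without saline replicates 1, 2 and 3. The call of Noct ended without leonurine replicate 2, those of Per2 and Nfil3 without that library or any 1 saline library, and that of Nr1d1 without any of them other than saline replicate 1. Those of Nfil3 and Nr1d1 also ended without leonurine replicate 1 (adjusted p 0.0518 to 0.344).

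Stress and cell death lists held 2 to 4 calls each, where 7.09% of all genes tested were called. Of 29 tested cell death genes 2 rose and 0 fell. Both encode death receptors: Fas had 13.3 and 8.26 FPKM in leonurine livers, against 5.29, 5.51 and 5.68 FPKM in saline livers (0.83 ± 0.21, adjusted p = 0.0469), and Tnfrsf1a had 67.8 and 80.0 FPKM, against 43.9, 35.1 and 43.3 FPKM (0.85 ± 0.17, adjusted p = 0.0239). Of 25 heat shock and cochaperone genes 2 fell and 0 rose. Dnaja1 had 57.9 and 36.7 FPKM, against 86.5, 109 and 94.4 FPKM (-1.04 ± 0.21), and Dnajb1 had 8.53 and 6.02 FPKM, against 12.6, 24.6 and 14.5 FPKM (-1.10 ± 0.28). Of 26 immediate early genes 1 rose and 2 fell. Dusp1, the phosphatase that switches off stress kinases, had 11.9 and 10.8 FPKM, against 37.1, 38.0 and 27.4 FPKM (-1.50 ± 0.19, adjusted p = 0.00468). Ier3 had 14.3 and 5.76 FPKM, against 3.74, 1.80 and 1.14 FPKM, a change of 1.74 ± 0.39 that was 1.15 without leonurine replicate 1, and Fas changed by 0.51 without that library. Of 20 p53 targets 1 rose and 3 fell, among them the kinase gene Plk2, with 1.63 and 1.45 FPKM against 4.45, 4.33 and 5.38 FPKM (-1.17 ± 0.24). Without leonurine replicate 1 the counts were 1 rise and 3 falls for cell death genes, 0 and 5 for immediate early genes and 0 and 5 for p53 targets. Without leonurine replicate 2 they were 1 and 0, 3 and 1, and 1 and 0, and without any 1 saline library 0 to 1 rises and 0 to 1 falls. Exons of Dusp1 and Dnaja1 overlap those of Ergic1 and Smu1 on opposite strands. Of these 7 calls that of Dusp1 held without any 1 library. Those of Fas and Ier3 ended without leonurine replicate 1, and those of Plk2, Tnfrsf1a, Dnaja1 and Dnajb1 without replicate 2. Plk2, Fas and Tnfrsf1a lost the call without saline replicate 1, and all 6 without saline replicate 2 or 3 (adjusted p 0.0528 to 0.298).

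The limma fit called no gene among 33 of DNA replication and cell cycle, 31 interferon-induced genes, 52 respiratory chain subunits, 76 cytosolic ribosomal proteins and 36 proteasome subunits. At an unadjusted p under 0.05 these lists held 1, 4, 20, 0 and 2 genes, against 2526 of all 10084 genes tested. Their medians were 0.04, -0.22, -0.41, -0.11 and -0.23. The respiratory chain subunits had both leonurine libraries below all saline libraries at 43 of 52 genes, against 34.7% of all genes tested, and without leonurine replicate 1 the fit called 16 of them lower. The median of the ribosomal proteins turned to 0.045 under median-ratio scaling and to 0.19 under quantile normalization, with 1 rise under the second. Among interferon-induced genes 1 rose under either of these scalings and without leonurine replicate 2, and 3 fell without leonurine replicate 1.

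**Figure D3:**
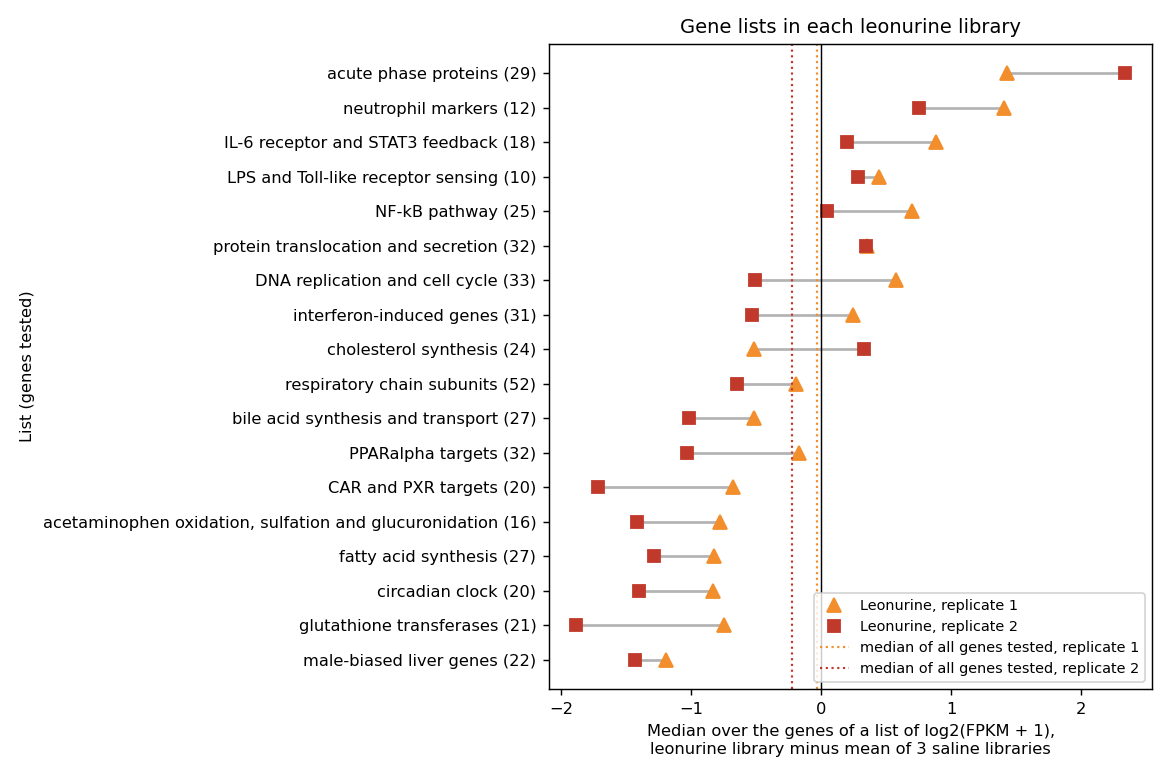
Median difference in log2(FPKM + 1) over the tested genes of 18 lists, for leonurine replicate 1 (triangles) and replicate 2 (squares), each against the mean of the 3 saline libraries. Dotted lines mark the median of all genes tested, -0.03 and -0.23. Acute phase proteins lie at 1.43 and 2.34, glutathione transferases at -0.75 and -1.88, and the cell cycle, interferon and cholesterol lists on opposite sides of 0 in the 2 libraries.

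Markers of other liver and blood cells were examined because whole liver was sequenced. Of 12 tested neutrophil markers 3 rose and 0 fell, against 1.98% and 5.11% of all genes tested. The list median was 1.05. The rises numbered 1 without leonurine replicate 1, where 1 gene fell, 2 without leonurine replicate 2, and 4, 1 and 1 without saline replicates 1, 2 and 3. Ngp, a granule protein of maturing neutrophils, had 10.3 and 5.25 FPKM in leonurine livers, against 0.292, 0.531 and 0.215 FPKM in saline livers (2.65 ± 0.37, adjusted p = 0.00689). Ltf (lactoferrin) had 2.32 and 1.04 FPKM, against 0.0206, 0.0391 and 0 FPKM, and Mmp8 had 1.80 and 1.34 FPKM, against 0.784, 0.175 and 0.0339 FPKM. The abundant neutrophil genes S100a8 and S100a9 had 58.4 and 25.5 FPKM and 68.1 and 30.0 FPKM, against 20.6, 3.49 and 2.48 FPKM and 22.9, 5.88 and 6.09 FPKM, and did not pass (adjusted p = 0.0862 and 0.0554). The summed neutrophil list was 262 and 120 FPKM in leonurine livers, against 89.8 to 138 FPKM in saline livers, so replicate 2 lay within the saline range. Of defining markers, Ly6g had 0.331 and 0.0274 FPKM, against 0.0604, 0 and 0 FPKM, and Mpo had 0.0709 and 0.151 FPKM, against at most 0.0980 FPKM. Elane, the neutrophil elastase gene, had 0.757 and 0.557 FPKM, against 0, 0.0291 and 0 FPKM, and Ctsg was at 0 in all 5 libraries. Camp, another granule gene, had 1.68 and 0.385 FPKM in leonurine livers and was at 0 in all saline livers. The part of neutrophils in the rises of Lcn2, Il1rn and other genes they also express was not tested.

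Of 5 tested monocyte markers 2 rose: Chil3, with 3.77 and 4.34 FPKM against 0.367, 0.0348 and 0.198 FPKM (2.08 ± 0.23, adjusted p = 0.00238), and Fn1, fibronectin, which hepatocytes also secrete, with 753 and 1132 FPKM against 393, 379 and 350.3 FPKM (1.30 ± 0.31). The defining marker Ccr2 had 0.415 and 0.179 FPKM in leonurine livers, against 0.130 to 0.329 FPKM in saline livers. Of 24 Kupffer cell and macrophage markers 1 fell and 0 rose, against 5.11% and 1.98% of all genes tested. That gene, the iron exporter Slc40a1, had 34.2 and 19.2 FPKM, against 46.3, 55.8 and 59.3 FPKM. The Kupffer cell receptor Clec4f had 39.6 and 26.5 FPKM, against 30.9, 32.8 and 36.0 FPKM, and its groups overlapped. The summed list was 822 and 473 FPKM in leonurine livers, against 626 to 725 FPKM in saline livers, so that the leonurine libraries stood on either side. None of the lymphocyte and NK cell markers passed the filter.

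Sinusoidal endothelial markers rose in 1 of 22 cases and fell in 2, against 1.98% and 5.11% of all genes tested. Lyve1 had 10.5 and 9.87 FPKM in leonurine livers, against 6.03, 6.08 and 4.87 FPKM in saline livers (0.75 ± 0.14). Oit3 had 8.72 and 7.97 FPKM, against 14.6, 16.9 and 17.0 FPKM (-0.87 ± 0.15), and Dnase1l3 had 11.8 and 8.70 FPKM, against 15.6, 19.0 and 18.9 FPKM (-0.75 ± 0.19). Of 25 stellate cell and matrix genes 2 rose, the growth factor receptors Pdgfra, with 1.90 and 1.74 FPKM against 0.788, 0.702 and 0.858 FPKM (0.66 ± 0.12), and Pdgfrb, with 3.17 and 2.87 FPKM against 2.09, 1.57 and 1.503 FPKM (0.57 ± 0.14). Of 5 cholangiocyte markers 1 rose (Sox9, with 3.39 and 5.85 FPKM against 1.91, 1.53 and 1.34 FPKM), and of 6 erythroid genes 1 fell (Alas2, the haem synthesis enzyme of red cells, with 17.5 and 9.67 FPKM against 36.6, 46.6 and 53.7 FPKM). Summed FPKM was 230 and 188 against 248 to 275 for the endothelial list, 317 and 217 against 281 to 304 for the stellate list, 67.7 and 161 against 73.4 to 104 for the cholangiocyte list and 102 and 97.4 against 180 to 230 for the erythroid list. Among the cell markers the calls of Ngp, Chil3 and Alas2 held without any 1 library. Those of Mmp8, Fn1, Oit3, Lyve1, Dnase1l3, Pdgfra, Pdgfrb, Sox9 and Slc40a1 ended without leonurine replicate 2, and these 9 and that of Ltf without saline replicate 2 or 3. Those of Ltf, Mmp8 and Pdgfrb ended without leonurine replicate 1, and those of Ltf, Fn1, Dnase1l3, Sox9 and Slc40a1 without saline replicate 1 (adjusted p 0.0527 to 0.303). Slc40a1 changed by -0.63 without leonurine replicate 2 and by -1.03 with it.

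The leonurine libraries differed from each other in direction as well as in strength, and with 1 library each these differences have no test. On the first principal component of the 5 libraries (72.5% of the variance) replicate 1 lay at -16.6 and replicate 2 at -46.7, with the saline libraries between 17.3 and 24.3. Genes at least 1 above the saline mean on the log2 scale numbered 194 in replicate 1 (1.92% of genes tested) and 189 in replicate 2 (1.87%). Genes at least 1 below it numbered 193 (1.91%) and 690 (6.84%). The larger number in replicate 2 was thus of genes below the saline mean. Of the 715 called genes, 604 moved the called way in both and further in replicate 2.

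Of the 29 tested acute phase genes, 25 were higher in leonurine replicate 2 and 4 in replicate 1 (Saa4, Serpina3g, Steap4 and Il1rn). The 10 genes furthest above replicate 1 were A2m, Saa3, Saa2, Moxd1, Cyp17a1, Orm2, Saa1, Slc13a5, Cxcl13 and Atp6v0a4. Orm2, an orosomucoid, had 504 and 2216 FPKM in leonurine livers, against 195, 186 and 250 FPKM in saline livers. The B cell chemokine Cxcl13 had 1.51 and 8.66 FPKM, against 0.9003, 1.04 and 1.43 FPKM. Slc13a5, the citrate carrier, had 1.41 and 9.19 FPKM, against 0.721, 0.230 and 0.485 FPKM. Moxd1, a mono-oxygenase-like protein, had 0.301 and 5.58 FPKM, against 0.0550, 0.409 and 2.64 FPKM, and Atp6v0a4, a proton pump subunit, had 1.53 and 8.52 FPKM, against 0.0344, 0 and 0.0338 FPKM.

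The 10 genes furthest below replicate 1 in replicate 2 included Cxcl10, Ripk2 and Rnd1. The interferon-induced chemokine Cxcl10 had 40.7 and 0.256 FPKM in leonurine livers, against 1.46, 1.24 and 1.16 FPKM in saline livers, so that replicate 1 stood above and replicate 2 below all saline libraries. Ripk2, the kinase of the NOD sensors, had 26.9 and 1.87 FPKM, against 2.94, 3.47 and 2.91 FPKM, with the same order. Rnd1, a small GTPase, had 42.1 and 3.06 FPKM, against 1.76, 3.19 and 2.28 FPKM. The median of the NF-kB list was 0.70 in replicate 1 and 0.04 in replicate 2, that of the interferon list 0.24 and -0.53, and that of the cell cycle list 0.58 and -0.51. The remaining genes among the 10 furthest below replicate 1 were the metabolic genes Gstm3, Cyp4a10, Inmt, Ces1d, Car3, Acot3 and Cyp2a5. Cyp4a10, a fatty acid hydroxylase under PPARalpha, had 204 and 23.7 FPKM, against 215, 256 and 227 FPKM, and Acot3, a peroxisomal thioesterase, had 15.7 and 0.384 FPKM, against 12.7, 11.8 and 6.95 FPKM. For these 2 genes replicate 1 was close to or above the saline libraries while replicate 2 was far below them.

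**Figure D4:**
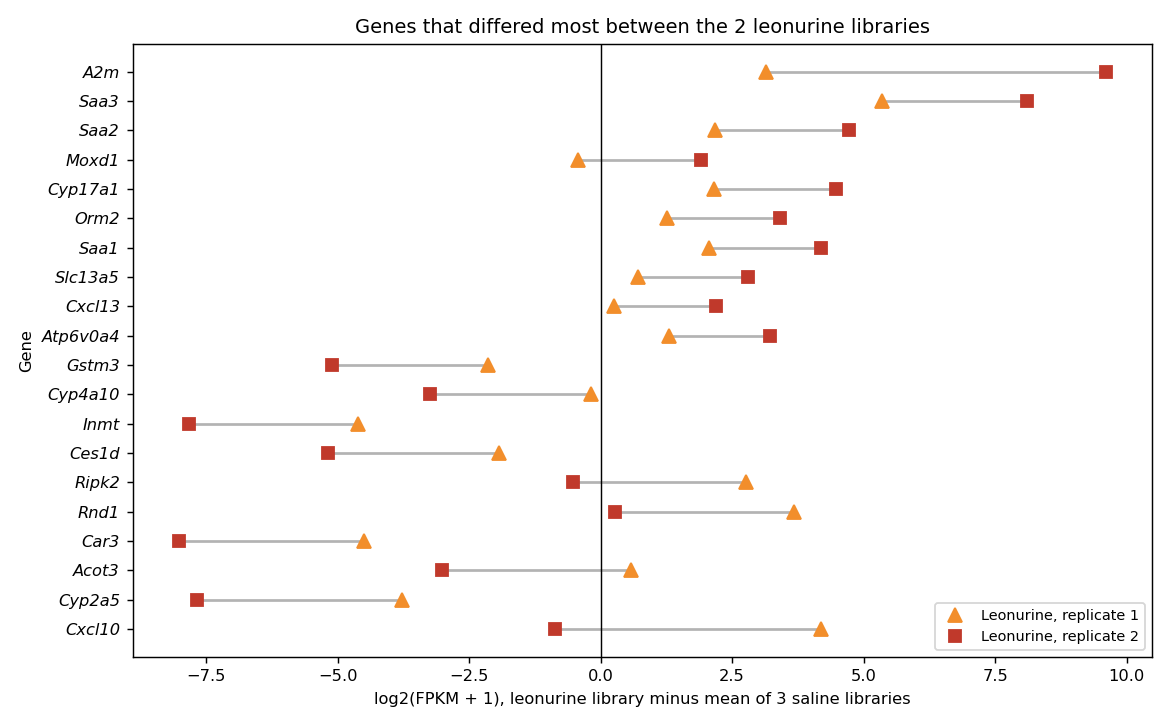
The 10 genes furthest higher and the 10 furthest lower in leonurine replicate 2 than in replicate 1, as log2(FPKM + 1) of each leonurine library minus the mean of the 3 saline libraries (triangles, replicate 1, and squares, replicate 2). A2m shows the widest positive gap (3.15 and 9.61) and Cxcl10 the widest negative one (4.19 and -0.86).

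The axis named in the series title runs from AdipoR2 through calmodulin and its kinase to nitric oxide synthase 3. Adiponectin receptors are membrane ceramidases that signal to AMPK and PPARalpha. Adipor2 had 78.5 and 88.2 FPKM in leonurine livers, against 141, 126 and 135 FPKM in saline livers of wild type (-0.68 ± 0.15, adjusted p = 0.0334). In the libraries labelled knockout it had 75.7 and 85.0 FPKM with leonurine and 70.1 and 76.0 FPKM with saline, so its transcript was not lost in them, and the wild-type leonurine values lay close to theirs. Of 22 tested axis genes 4 fell and 0 rose, with a median of -0.11 that was 0.02 with median-ratio scaling and 0.04 with quantiles. Under both scalings 2 genes fell, and the calls of Adipor2 and Ppara ended. With the deposited scaling, the genes that fell besides Adipor2 were Prkaa2, Paqr7 and Ppara. Prkaa2, a catalytic AMPK subunit, had 6.02 and 5.47 FPKM, against 10.001, 12.3 and 12.04 FPKM. Paqr7, a progestin receptor of the same family as Adipor2, had 8.51 and 3.50 FPKM, against 13.1, 16.2 and 14.9 FPKM. Ppara had 21.9 and 16.0 FPKM, against 36.3, 34.4 and 40.2 FPKM (-0.94 ± 0.22, adjusted p = 0.0393).

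Nos3 had 2.18 and 1.23 FPKM in leonurine livers, against 2.40, 1.73 and 1.90 FPKM in saline livers (-0.17 ± 0.17, adjusted p = 0.584). The calmodulin genes Calm2 and Calm3 changed by 0.01 ± 0.21 and -0.07 ± 0.22, and the kinase genes Camk2g, Camk2b and Camkk2 by -0.14 ± 0.17, 0.47 ± 0.18 and 0.39 ± 0.14. The other receptor gene Adipor1 had 30.6 and 27.0 FPKM, against 34.3, 33.7 and 34.1 FPKM. None of these 7 passed. The number of axis genes that fell was 3 without leonurine replicate 1, where 1 rose, 0 without leonurine replicate 2, and 1 without any 1 saline library. The 4 calls ended without leonurine replicate 2, that of Adipor2 also without leonurine replicate 1, and those of Adipor2, Paqr7 and Ppara without any 1 saline library (adjusted p 0.0530 to 0.259). Paqr7 changed by -0.72 without leonurine replicate 2 and by -1.26 with it.

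The response to leonurine in wild type was set against that in the labelled knockout by testing their difference in the same fit. It was called at 353 genes, 3.50% of those tested, with the wild-type response above at 205 (2.03%) and below at 148 (1.47%). Without 1 wild-type saline library the count lay between 93 and 195. Both knockout leonurine libraries had 0 FPKM of the Y-linked Ddx3y, against 14.7 and 11.95 FPKM in the knockout saline libraries, while all wild-type libraries had it. Within the labelled knockout, the lack of this transcript went fully with leonurine. For any gene, a difference of sex between the knockout groups and a difference between the responses therefore cannot be told apart.

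Among the wild-type rises, the response was larger in wild type for Lcn2, Sult1e1, Tifa, Serpina3n, Steap4 and Wnt10a. Of the 29 tested acute phase genes, the difference was called at 4, against 3.5% of all genes tested. It did not pass for Saa3, A2m, Cd14, Apcs and Il1rn, which also rose in wild type (adjusted p 0.0629 to 0.118). Tifa had 4.12 and 5.82 FPKM in knockout leonurine livers, against 4.79 and 4.13 FPKM in knockout saline livers, and its responses differed by 3.56 ± 0.24 (adjusted p = 0.000204). Steap4 had 66.6 and 99.7 FPKM, against 104 and 95.8 FPKM (difference 3.15 ± 0.36, adjusted p = 0.00405), and Wnt10a was at 0 FPKM in all 4 knockout libraries. Alpk1 differed by 1.81 ± 0.29 and Osmr by 1.75 ± 0.25. The values of Mt1 and Cyp17a1 in the labelled knockout were 2.27 and 3.15, neither of which passed (adjusted p = 0.102 and 0.0698), and their differences from wild type, 0.72 and 0.17, did not pass (adjusted p = 0.691 and 0.946).

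Among the falls, the responses differed for Car3, Inmt, Scd1, Thrsp and Upp2. By list, the difference was called at 11 of 27 fatty acid synthesis genes, 3 of 16 APAP-disposal genes and 0 of 21 glutathione transferases. The share over all genes tested was 3.5%. Other lists with calls included 7 of 10 female-biased, 9 of 22 male-biased and 8 of 32 protein translocation and secretion genes. Inmt had 933 and 435 FPKM in knockout leonurine livers, against 212 and 303 FPKM in knockout saline livers (difference -7.54 ± 1.10, adjusted p = 0.0113). Thrsp had 536 and 519 FPKM, against 67.9 and 199 FPKM (difference -6.78 ± 0.59, adjusted p = 0.000876). Hsd3b5, a male-biased gene, fell by 4.87 ± 0.50 in the labelled knockout, and its difference of 0.51 did not pass (adjusted p = 0.734). The genes with the smallest p for the difference also held the sex-linked or sex-biased Mup14, Mup7, Ddx3y, Eif2s3y, Cyp2a4 and Cyp2c69. For Cyp2a4 the values were 2.77 and 0 FPKM in wild-type leonurine livers, against 10.997, 8.80 and 10.3 FPKM in wild-type saline livers, and 1050 and 430 FPKM in knockout leonurine livers, against 2.73 and 2.52 FPKM in knockout saline livers.

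**Figure D5:**
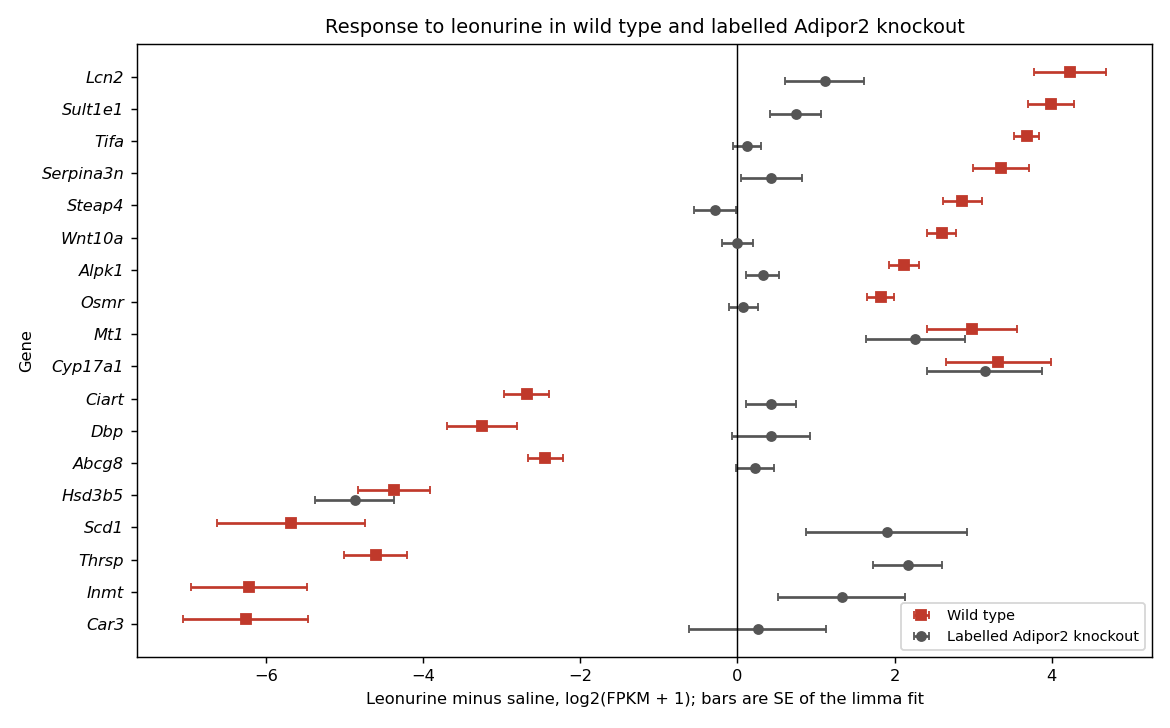
Leonurine minus saline on log2(FPKM + 1) for 18 genes in wild type (squares) and in the labelled knockout (circles), with bars for the SE of the limma fit. Tifa stands at 3.68 in wild type and 0.12 in the labelled knockout, and Thrsp at -4.61 and 2.17, whereas Hsd3b5 lies at -4.37 and -4.87.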

How the data were processed

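Whole-liver RNA was sequenced in 9 libraries, and the authors deposited 1 table of FPKM values. The submitters' processing notes name the build mm10 and the tools HTSeq, HISAT2, fastp and R (3.2.0), with no roles. Annotation and strand settings are not given in the sources used here. FPKM is relative to library total, so a few very abundant genes lower all others. Whole fragments were recovered from ratios of FPKM between libraries for 16857 of 16857 genes (tolerance 0.0001) and used for depth only, which covers counting error only. No wild-type pair of libraries agreed within sampling noise (smallest chi-square per degree of freedom 30.8), so each counted as 1 replicate. 0 numeric columns were unmatched.

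Columns were matched to samples by the number in each sample's description. limma 3.58.1 in R 4.3.3 fitted 1 mean per group to log2(FPKM + 1) of all 9 libraries (5 residual and 4.41 prior degrees of freedom, variance trend), and p-values were adjusted over all 10084 genes tested. SE is that of this fit. The fit was tested on simulated data. Gene lists (51, with 1239 distinct genes) gave counts and medians, with no set test. The members and lists were chosen with earlier results of these data known. Genes named were the 15 largest rises and 15 largest falls among called genes with mean FPKM of at least 1 in either group, passing over predicted genes and pseudogenes, up to 4 members of smallest p per list with defining members, the axis genes, the 10 genes furthest apart each way between the leonurine libraries, and the 8 with the smallest p for the difference between responses. Camp and Elane, and the examples set beside the labelled knockout other than those 8, were chosen after their values were seen. A few genes that these rules name are not reported here, but list counts include them. Promoters of 8165 tested genes were matched in RefSeq by symbol, the first listed start site was used, and gene positions are from GENCODE vM21. Alternatives were the pseudocount, filter, scaling, library weights, variance trend, a replicate block, fewer groups and leaving out each library. Figures were drawn with matplotlib 3.10.9.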

Additional observations from a re-analysis of the deposited data

Results flagged for a closer look

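Of the 163 tested genes named, 52 had responses to leonurine that differed between wild type and the labelled knockout. This was by the test of the difference itself (limma, adjusted p under 0.05). Many of these genes were named for their wild-type change, which enters this difference, and others for a small p of the difference. The 52 of 163 therefore does not measure how common such differences were. Among all 10084 genes tested, the difference was called at 353, or 3.5%. Each value below is the wild-type response minus the knockout response on the log2 scale. Both knockout leonurine libraries lacked Y-linked transcripts that the knockout saline libraries had. For any gene, a difference of sex between those libraries and a difference between the responses therefore cannot be told apart.

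Among sex-linked or sex-biased genes the difference was 8.81 for Mup7, 7.46 for Mup14, 3.52 for Ddx3y and 2.30 for Eif2s3y, and -10.04 for Cyp2a4 and -6.81 for Cyp2c69. The Mup genes are close copies. Acute phase and sensing genes gave 3.56 for Tifa, 3.15 for Steap4, 3.13 for Lcn2, 2.92 for Serpina3n, 2.48 for Lrg1, 1.81 for Alpk1, 1.75 for Osmr, 1.53 for Il1r1 and 1.14 for Il33. Other genes that rose in wild type gave 3.25 for Sult1e1, 2.60 for Wnt10a, 2.06 for Gpx3, 1.76 for Ldha, 1.73 for Slc11a2, 1.64 for Serpina10, 1.35 for Spcs2 and 0.91 for Pdgfra.

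Lipid and sterol genes gave -7.58 for Scd1, -6.78 for Thrsp, -3.23 for Lpin1, -2.69 for Mid1ip1, -2.67 for Abcg8, -2.56 for Abcg5, -2.39 for Srebf1, -2.29 for Insig1, -2.20 for Me1, -1.89 for Sc5d, -1.67 for Acaca and -1.44 for Stard4. Clock and growth hormone genes gave -3.68 for Dbp, -3.11 for Ciart, -2.28 for Noct, -1.46 for Ghr and -1.02 for Hlf. Drug, fuel and other genes gave -7.54 for Inmt, -6.52 for Car3, -4.58 for Upp2, -4.38 for Serpina6, -2.79 for Ces2a, -2.46 for Papss2, -1.82 for Pygl, -1.79 for Cat, -1.61 for Amdhd1, -1.59 for Haao, -1.55 for Herpud1 and -1.15 for Oit3.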

How the results depend on the processing

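Of 715 genes called, the count was 202 with no filter (91 higher, 111 lower), of which 160 were shared with the 715. It was 79 with a replicate block (37 higher, 42 lower), of which 78 were shared. Higher calls numbered 347 with median-ratio scaling and 399 with quantile normalization. Over omissions of 1 wild-type library, all calls ranged from 160 to 1372, higher calls from 64 to 220 and lower calls from 74 to 1152. The 353 differences between responses became 133 with no filter, 543 with median-ratio scaling, 175 with array weights and 64 with the replicate block, and ranged from 80 to 800 over omissions of 1 library. With a pseudocount of 0.1, genes at least 1 from the saline mean in leonurine replicate 1 numbered 625 against 387. The replicate numbers were not taken to pair libraries: deviations of same-numbered leonurine and saline libraries correlated at 0.088 and 0.017, with only 2 pairs. With no filter and with the block, falls numbered 2 and 0 of APAP-disposal genes, 1 and 1 of CAR and PXR targets, 0 and 1 of glutathione transferases, 2 and 1 of fatty acid synthesis genes, 2 and 2 of bile acid genes, 4 and 1 of clock genes and 3 and 2 of male-biased genes. The causes of these shifts were not tested.

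Of 128 named calls, 43 held without each wild-type library in turn and 25 under every alternative run. In the omissions of a leonurine library only 1 was left in that group, so its spread did not enter the p-values. Signs turned only for genes that had not passed. Under median-ratio scaling Clec4f turned to 0.1198 and Calm3 to 0.0757, under quantile normalization Clec4f to 0.2059, Calm3 to 0.1534, Nfkbia to 0.0075 and Adipor1 to 0.0028, and under the block Clec4f to 0.0281. Over omissions of 1 library the log2 change ranged from -0.3207 to 1.4602 for Hmox1, -0.5773 to 0.1735 for Nfkbia, -0.968 to 0.178 for Cps1, -0.311 to 0.2504 for Clec4f, -0.4253 to 0.0821 for Nos3, -0.0667 to 0.0876 for Calm2, -0.2325 to 0.0839 for Calm3 and -1.0173 to 0.3293 for Cyp2c69. The number of libraries, 2 and 3, limits the precision.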
